A study of Apostichopus japonicus with 3 samples.

Results

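The genes described here encode the proteins that splice, bind, unwind, trim and assemble RNA in the intestine of the sea cucumber Apostichopus japonicus. They were taken from an assembled transcriptome in which each assembled transcript, or isotig, carries the description of its best protein match. An isotig was included when that description named splicing, spliceosomes, snRNPs, ribonucleoproteins, RNA helicases, DEAD or DEAH boxes, RNA binding, pre-mRNA, the exosome or the nucleolus. Descriptions of polyadenylate-binding and ribosomal proteins were left out. The rule found 115 of 20712 isotigs, which stand for 88 differently named proteins. They were sorted by the named protein into 11 subgroups, the last of which holds 5 isotigs of other proteins whose descriptions held the words. No description named a cold-inducible RNA-binding protein, so that subgroup is empty.

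The animals were sampled at 3 stages of the summer dormancy called aestivation, during which sea cucumbers stop feeding and their gut shrinks. Intestines were taken in non-aestivation, in deep aestivation and on arousal, with at least 15 individuals a stage. Each stage is represented by 1 sequencing library of poly(A)-enriched RNA, and whether the RNA of the individuals was pooled is not given. No genotype, strain, age or treatment is given beyond the stage, and the tissue is whole intestine, a mixture of cell types. The comparisons ask how the gut transcriptome differs as animals enter and leave dormancy.

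Splicing removes introns from pre-mRNA on the spliceosome, which is built from the U1, U2, U4, U5 and U6 small nuclear ribonucleoprotein particles, or snRNPs, and many helper proteins. SR proteins and hnRNPs bind the pre-mRNA and steer which splice sites are used, and RNA helicases of the DEAD and DEAH families remodel each step. In the nucleolus another set of proteins and small nucleolar RNPs modifies and folds ribosomal RNA and assembles ribosomes, a process tied to growth. Dormant animals are widely known to reduce costly processes such as protein synthesis.

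The libraries held 1.02 M uniquely aligned reads in non-aestivation, 0.893 M during deep aestivation and 0.945 M at arousal. With 1 library a stage, replicate error is unknown, and no SD or test is given. The intervals given are exact 95% intervals that cover counting error only, and reads amplified by PCR without molecular tags are not independent molecules. An isotig was called higher or lower when its level differed at least 2-fold on the scale log2(RPKM + 0.5) and a 99.9% counting interval of the ratio left out equality. RPKM is the read count scaled to the length of the isotig and the size of the library. Such a call compares the libraries, not the stages. A 2-fold difference could be called only from about 90 reads over a pair of libraries, and 22 of the 115 isotigs had that many in deep aestivation and non-aestivation together. The file name codes of the non-aestivation and arousal samples are crossed against their labels, and stages are taken from the labels. Every direction between non-aestivation and arousal rests on those labels, whereas a level lower in deep aestivation than in both other libraries does not. In whole tissue, fewer cells of a type and less RNA per cell cannot be told apart.

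The tissue label was set against marker genes found by name. Gut epithelium markers did not move together. Intestinal fatty acid binding protein 2 held 1.62% of reads in non-aestivation, 0.319% during deep aestivation and 5.44% at arousal, and trypsin held 0.125%, 0.181% and 0.0274% in the same order. Maltase held 0.0725%, 0.255% and 0.256%, and amylase 0.00597%, 0.0289% and 0.0276%. Of the 37 compared isotigs of the gut list, 14 were called higher in deep aestivation than in non-aestivation and 2 lower, where 5.19% and 4.06% of all isotigs were. Major yolk protein, which echinoderm guts also make, held 2.51%, 10.4% and 10.9% in the same order, while vasa, nanos, piwi and boule matched no isotig. Muscle markers held 0.217%, 0.169% and 0.147%, and neuron markers 0.0826%, 0.126% and 0.0901%. Members of both lists went different ways. Acetylcholinesterase, most of the neuron sum, held 0.0485%, 0.0940% and 0.0793%, but acetylcholine receptor held 0.0266%, 0.0217% and 0.00561%. In the muscle list titin held 0.105%, 0.0665% and 0.0497%, but twitchin held 0.00900%, 0.0144% and 0.00953%. No coelomocyte marker was found by name. These large shifts of a few transcripts move the share left to every other gene, and their part in the results was not tested.

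Together the 115 isotigs held 0.645% of reads in non-aestivation, 0.429% during deep aestivation and 0.507% at arousal. The summed share in deep aestivation was 0.665 times that in non-aestivation (95% interval 0.639 to 0.692). A single isotig, hnRNP A/B, carried much of the difference, and without it the ratio was 0.823 (0.786 to 0.861). Arousal stood at 1.18 times deep aestivation (1.13 to 1.24) and at 0.787 times non-aestivation (0.758 to 0.817). As a whole the group was therefore least abundant in the deep aestivation library, but the subgroups did not behave alike. The summed shares of hnRNPs, nucleolar proteins and Sm and snRNP proteins were lowest in deep aestivation, whereas those of U2 and U5 factors, SR proteins and the other RNA-binding proteins were not. For the U2 and U5 factors this rested on a single protein, PRPF8, as described below, and no interval was computed for the sum without it.

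**Figure D1:**
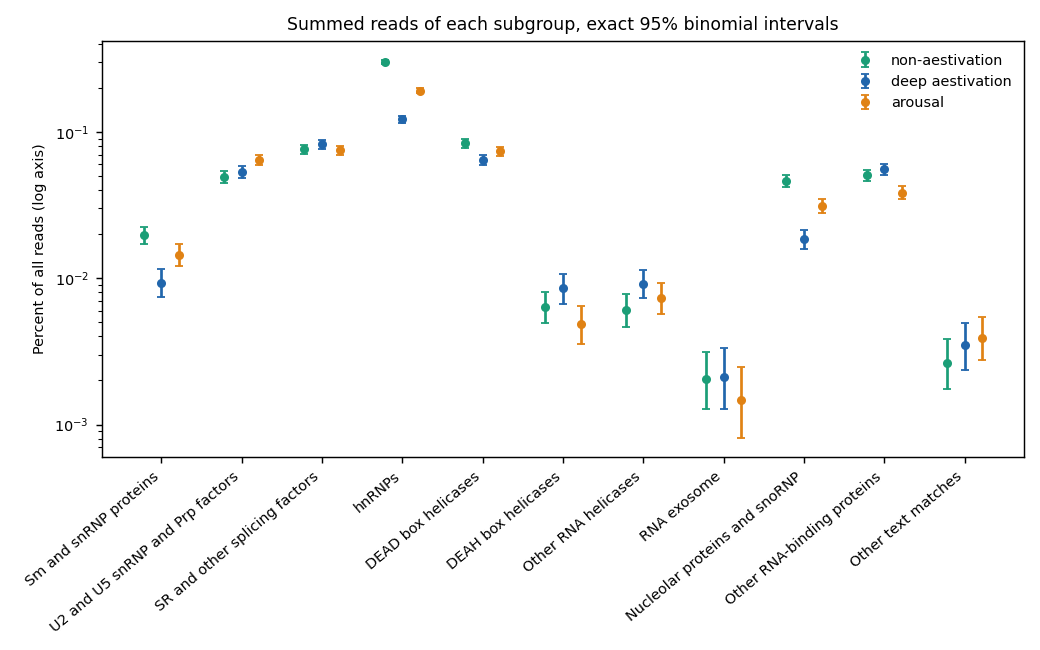
Summed reads of each subgroup as a percent of all reads (vertical log axis) in non-aestivation, deep aestivation and arousal, 1 library each, with bars for exact 95% binomial intervals that cover counting error only. The hnRNPs stand at 0.302%, 0.122% and 0.192% and the nucleolar proteins at 0.0465%, 0.0185% and 0.0313%, both lowest in deep aestivation, while the SR proteins stay between 0.075% and 0.0824%.

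Of the 115 isotigs, 108 had a mean of at least 1 RPKM over the 3 libraries and were compared one by one. The 7 left out were pieces of SRSF4, KOC, DDX52, RBM7 and the exosome subunit RRP42 with at most 3 reads in any library. In deep aestivation against non-aestivation, 1 of the 108 was called higher and 5 were called lower, where 5.19% and 4.06% of all 18352 isotigs that passed were. The 5 are 4.63% of the 108, close to the share of all isotigs called lower, and the 1 is 0.926%. Among isotigs with 100 or more reads over the 3 libraries, 1 of 27 was called higher and 4 lower, where 13.8% and 13.3% of all isotigs so deeply read were. The median log2 ratio was 0.01, against 0.16 over all isotigs. In arousal against deep aestivation, 2 were called higher and 1 lower, where 3.37% and 5.31% of all isotigs were, and the medians were 0.01 and -0.17. In arousal against non-aestivation, 1 was called higher and 2 lower, where 3.84% and 5.21% of all isotigs were, and the medians were -0.22 and -0.04. Medians near 0 hid isotigs that went both ways. By the 2-fold limit alone, with no demand on counting error, 12 of the 108 (11.1%) were higher in deep aestivation than in non-aestivation and 20 (18.5%) were lower, where 24.5% and 17.7% of all isotigs were.

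Scaling touches these counts. Median-ratio scaling moves the median log2 ratio of all isotigs by -0.12 in deep aestivation against non-aestivation and by 0.17 in arousal against deep aestivation. The calls over all isotigs, 952 higher and 745 lower in deep aestivation against non-aestivation, become 721 and 954 under it. In arousal against deep aestivation, 619 higher and 975 lower become 839 and 732, or 816 and 749 with upper-quartile scaling. In arousal against non-aestivation, 704 higher and 956 lower become 861 and 768 with upper-quartile scaling. Subgroup values are therefore best read against the medians of all isotigs.

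RPKM was lowest in deep aestivation for 39 of the 108 isotigs, which is 36.1% where 25.0% of all isotigs were lowest there. It was highest in deep aestivation for 41, which is 38.0% where the share of all isotigs was 42.2%. Both orders use the single deep aestivation library against the other two. Lowest in deep aestivation were 10 of 16 nucleolar isotigs, 9 of 17 DEAD box helicases, 3 of 4 Sm and snRNP isotigs and 3 of 3 hnRNPs. Highest in deep aestivation were 15 of 22 other RNA-binding proteins and 6 of 8 DEAH box helicases, the DEAH isotigs mostly with few reads.

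**Figure D2:**
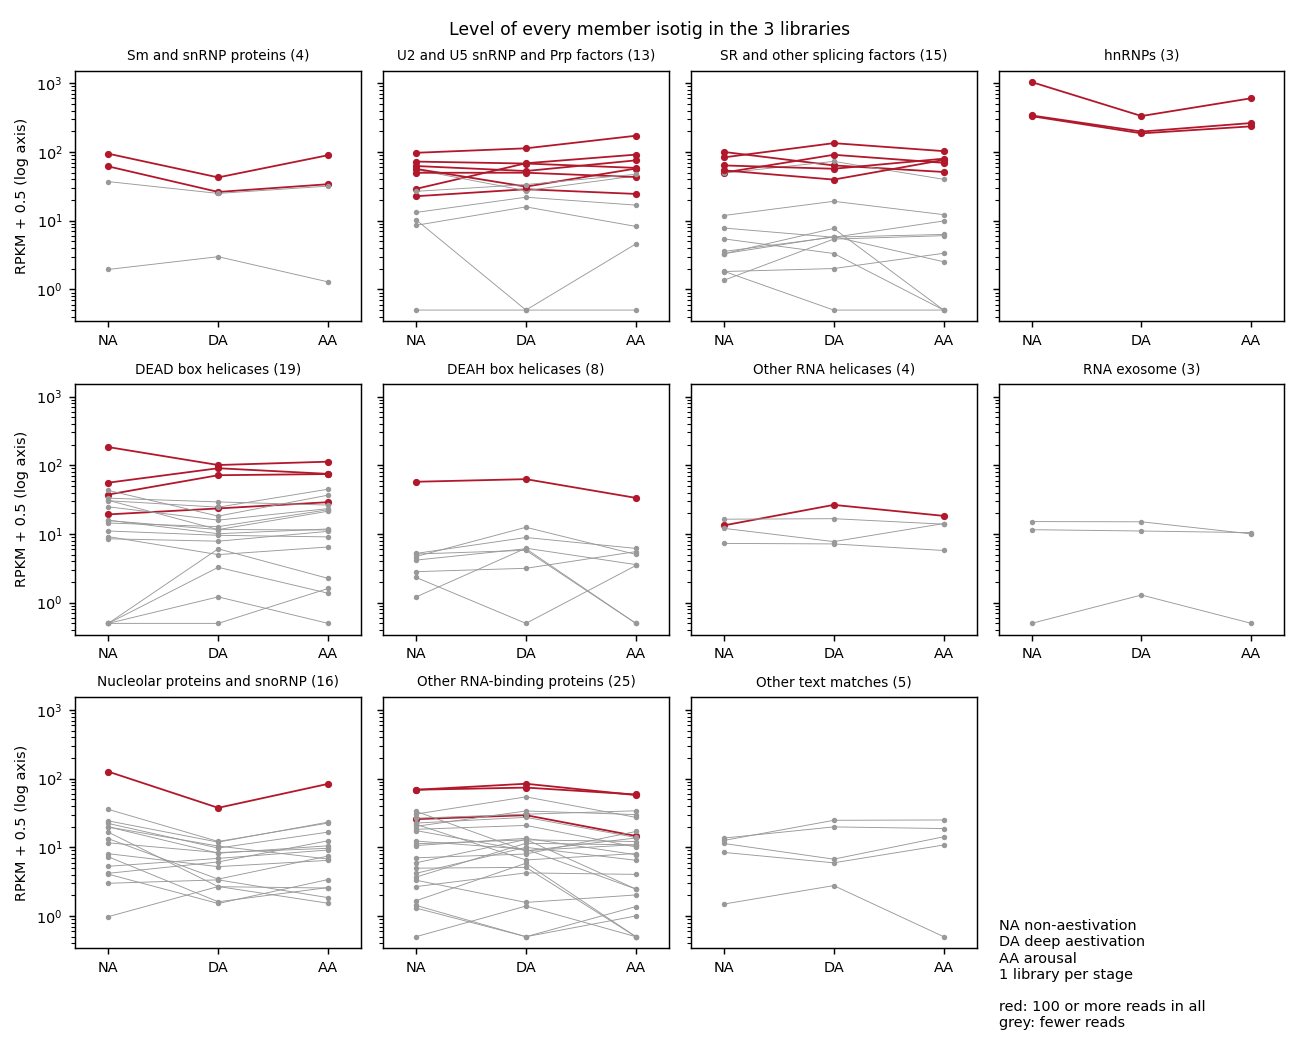
Level of each of the 115 isotigs as RPKM + 0.5 (vertical log axis) in the non-aestivation (NA), deep aestivation (DA) and arousal (AA) libraries, 1 panel per subgroup and 1 line per isotig, red where it had 100 or more reads over the 3 libraries. The 3 hnRNP lines and the red NOP56 line of the nucleolar panel dip in DA, while the red lines of the SR and U2 and U5 panels run in different directions.

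The hnRNPs are abundant proteins that coat nascent pre-mRNA, and they were the most highly expressed isotigs of the group. hnRNP A/B (isotig13634), a regulator of splice site choice and mRNA packaging, had 1041 RPKM in non-aestivation, 333 during deep aestivation and 605 at arousal, from 2063, 576 and 1108 reads. It fell in deep aestivation to a share 3.13 times lower than in non-aestivation (2.85 to 3.44), a log2 ratio of -1.64. Arousal stood 1.82-fold above deep aestivation (1.64 to 2.01), a log2 ratio of 0.86 that missed the 2-fold limit under total-read scaling and passed it under both other scalings. Arousal remained below non-aestivation, at 0.581 times its share (0.540 to 0.626).

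hnRNP R (isotig13907), which binds mRNA in the nucleus and the cytoplasm, had 339 RPKM in non-aestivation, 198 during deep aestivation and 263 at arousal. Its share in deep aestivation was 1.72 times lower than in non-aestivation (1.5 to 1.98). hnRNP K (isotig15970), which binds C-rich RNA, had 331, 186 and 236 RPKM in non-aestivation, deep aestivation and arousal. Its share in deep aestivation was 1.78 times lower than in non-aestivation (1.5 to 2.12). Neither reached 2-fold, and both had the order of hnRNP A/B, with deep aestivation lowest and arousal between the other libraries. Over the 3 isotigs the summed share in deep aestivation was 2.48 times lower than in non-aestivation (2.31 to 2.66), and that in arousal was 1.58 times that in deep aestivation (1.46 to 1.70).

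The nucleolar and snoRNP proteins, which build ribosomes, had the lowest median of the subgroups with 3 or more compared isotigs in deep aestivation against non-aestivation, at -1.11 where all isotigs had 0.16. Of the 16 isotigs, 12 lay below 0, where 7993 of all 18352 did, and 2 were called lower, where 4.06% of all isotigs were. Their summed share in deep aestivation was 2.51 times lower than in non-aestivation (2.10 to 3.02). In arousal it was 1.70 times that of deep aestivation (1.40 to 2.06) and 1.48 times lower than in non-aestivation (1.28 to 1.72). The median in arousal against deep aestivation was 0.55, with 12 of 16 isotigs above 0, where all isotigs had a median of -0.17 and 7206 of 18352 above 0. The sums pointed the same way with both other scalings.

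NOP56 (isotig14151), a core protein of the box C/D snoRNPs that guide methylation of ribosomal RNA, led the subgroup. It had 126 RPKM in non-aestivation, 37.0 during deep aestivation and 83.3 at arousal, from 214, 55 and 131 reads. It fell in deep aestivation to a share 3.40 times lower than in non-aestivation (2.52 to 4.66) and rose in arousal to 2.25 times that of deep aestivation (1.63 to 3.14). Without NOP56 the other 15 isotigs had 261 reads in non-aestivation, 110 during deep aestivation and 165 at arousal. Their summed share in deep aestivation was still 2.07 times lower than in non-aestivation (1.65 to 2.61).

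NOC3, a protein needed for maturing the large ribosomal subunit, was found in 2 isotigs. One (isotig17018) had 38 reads in non-aestivation, 11 during deep aestivation and 22 at arousal, and was called lower in deep aestivation than in the non-aestivation library, 3.02 times (1.51 to 6.54). The other (isotig14397) had 35, 13 and 24 reads in the same order and was not called. The 2 pieces thus had the same order of stages. GNL2, a nucleolar GTPase of large subunit assembly, had 43 reads in non-aestivation, 18 during deep aestivation and 38 at arousal. Its deep aestivation share was 2.09 times lower than that of non-aestivation (1.18 to 3.84), and arousal stood at 1.99 times deep aestivation (1.11 to 3.71), without a call.

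NHP2, a protein of the H/ACA snoRNPs that guide pseudouridylation, had 28 reads over 2 isotigs in non-aestivation, 8 during deep aestivation and 10 at arousal. The share in deep aestivation was 3.06 times lower than in non-aestivation (1.36 to 7.76). Arousal stood at 1.18 times deep aestivation (0.42 to 3.44), an interval that includes both equality and the 2.25 of NOP56. Among proteins of the small subunit processome, which cleaves the ribosomal RNA precursor, UTP14A had 23, 8 and 11 reads in non-aestivation, deep aestivation and arousal. NOP14 had 10, 2 and 5 reads and NOC4 had 7, 1 and 2 in the same order. RRP9, a protein of the U3 snoRNP, had 21, 13 and 16 reads. NOL6 with 6, 7 and 10 reads and UTP15 with 3, 4 and 9 did not share the dip, and NOL8 and NOC2 had at most 4 reads in any library.

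ANO39, a starfish nucleolar acidic protein by its description, followed another order. Its main isotig (isotig07260) had 40 reads in non-aestivation, 18 during deep aestivation and 12 at arousal, and was called lower in arousal than in non-aestivation, 3.08 times (1.58 to 6.45). Its counts thus ran downward through the 3 stages, but the second step lay within counting error. Over the 2 ANO39 isotigs the arousal share was 0.601 times that of deep aestivation (0.285 to 1.23), an interval that includes equality. That call was lost with upper-quartile scaling.

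Markers of dividing cells, like the nucleolar subgroup, had their lowest summed share in deep aestivation. The list of 16 isotigs, which holds proliferating cell nuclear antigen, minichromosome maintenance proteins, cyclin B and ribonucleotide reductase, held 0.0579% of reads in non-aestivation, 0.0308% during deep aestivation and 0.0523% at arousal. In deep aestivation against non-aestivation 5 of them were called lower and 0 higher, where 4.06% and 5.19% of all isotigs were. In arousal against deep aestivation 2 were called higher and 0 lower, where 3.37% and 5.31% of all isotigs were. In arousal the list stood at 0.903 times its non-aestivation share (0.800 to 1.02), where the nucleolar subgroup stood at 0.674 times (0.581 to 0.781). Isotigs named ribonucleotide reductase had 88 reads in non-aestivation, 37 during deep aestivation and 42 at arousal, and thus recovered little. The 1 isotig named ribonucleoside-diphosphate reductase had 21, 13 and 28 reads in the same order. None of the named markers was at 0. Their part in the nucleolar result was not tested.

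**Figure D3:**
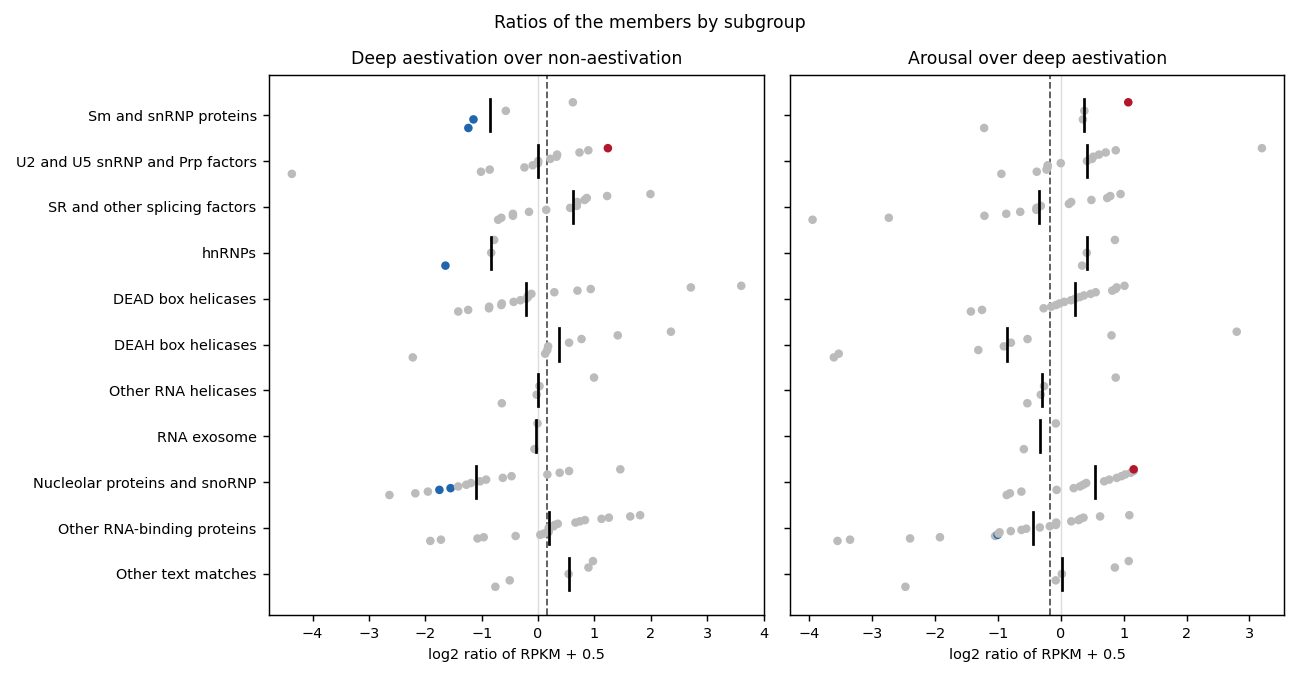
log2 ratio of RPKM + 0.5 of each compared isotig (dots), by subgroup, in deep aestivation over non-aestivation and in arousal over deep aestivation, with called isotigs in blue (lower) and red (higher), black bars for subgroup medians and a dashed line for the median of all isotigs (0.16 and -0.17). The nucleolar median stands at -1.11 in the first comparison and 0.55 in the second, and the medians of the DEAH box helicases and the other RNA-binding proteins lie below the dashed line in the second.

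The Sm and snRNP subgroup was small, with 4 isotigs. SNRPE (isotig20378), the Sm E protein of the ring that holds spliceosomal small nuclear RNAs, had 93.9 RPKM in non-aestivation, 42.1 during deep aestivation and 89.2 at arousal, from 74, 29 and 65 reads. It fell in deep aestivation to a share 2.23 times lower than in non-aestivation (1.43 to 3.55). It rose in arousal to 2.12 times that of deep aestivation (1.35 to 3.40). Arousal and non-aestivation differed by less than counting error, at a ratio of 0.951 (0.671 to 1.34).

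U1-A, the protein of the U1 snRNP that binds a stem-loop of U1 RNA, was found in 2 isotigs. The larger (isotig14288) had 101 reads in non-aestivation, 37 during deep aestivation and 51 at arousal, and fell in deep aestivation to a share 2.38 times lower than in non-aestivation (1.62 to 3.57). The smaller (isotig22466) had 24, 14 and 19 reads in the same order, without a call. The 2 isotigs match U1-A of different species, and the summed share in arousal was 1.30 times that of deep aestivation (0.891 to 1.90), an interval that includes equality. The minor spliceosome protein U11/U12-35K had at most 3 reads in any library. Over the 4 isotigs the share in deep aestivation was 2.11 times lower than in non-aestivation (1.63 to 2.76), and the share in arousal was 1.55 times that in deep aestivation (1.17 to 2.06).

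The U2 and U5 factors and the Prp proteins form the catalytic and branch-site machinery. Their summed share in deep aestivation was 1.08 times that in non-aestivation, with an interval of 0.950 to 1.23 that includes equality. In arousal it was 1.22 times that of deep aestivation (1.08 to 1.38) and 1.31 times that of non-aestivation (1.17 to 1.48). The large U5 protein PRPF8, the scaffold of the splicing active site, accounted for much of it. It held 147 of 504 reads in non-aestivation, 193 of 475 during deep aestivation and 265 of 612 at arousal. The share left to the other isotigs of the subgroup was lowest in deep aestivation. No interval was computed for that share, so whether its dip exceeds counting error is not shown.

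PRPF8 was covered by 4 isotigs that did not change alike. One (isotig15654) had 28.5 RPKM in non-aestivation, 68.0 during deep aestivation and 91.0 at arousal, from 37, 77 and 109 reads that covered 66.6%, 86.4% and 93.1% of its length. It rose 2.38-fold in deep aestivation against non-aestivation (1.59 to 3.63), the only one of the 108 called higher in that comparison. In arousal against non-aestivation it rose 3.19-fold (2.18 to 4.76), again the only one called higher. The most abundant isotig (isotig22302) had 96.8, 113 and 172 RPKM in non-aestivation, deep aestivation and arousal. Its share in deep aestivation was 1.16 times that in non-aestivation (0.811 to 1.67), and arousal stood at 1.78 times non-aestivation (1.29 to 2.46). Another piece (isotig08833) had 46, 51 and 46 reads in the 3 stages, level within counting error. The last (isotig08834) had 5 reads in arousal and 0 elsewhere. Summed over the 4, PRPF8 had 147, 193 and 265 reads, and its arousal share was 1.95 times that of non-aestivation (1.59 to 2.40).

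SNRNP200, the helicase that unwinds U4 from U6, had 118 reads in non-aestivation, 87 during deep aestivation and 132 at arousal, and its arousal share was 1.43 times that of deep aestivation (1.09 to 1.90). The SF3A and SF3B proteins bind the branch site with the U2 snRNP. SF3A1 had 71, 58 and 53 reads and SF3B2 had 40, 35 and 32 in non-aestivation, deep aestivation and arousal, both level within counting error. SF3A3 had 28 reads in non-aestivation, 12 during deep aestivation and 21 at arousal. SF3B3 had 46, 22 and 43 reads in one isotig (isotig19918) and 20, 22 and 33 in the other (isotig20682). The SF3B3 pieces thus gave different orders, but within counting error. Their ratios of deep aestivation to non-aestivation were 0.548 (0.314 to 0.929) and 1.26 (0.656 to 2.43), with overlapping intervals.

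PRPF18, which acts in the last splicing step, had 21, 31 and 25 reads, and ISY1, which is bound to the active spliceosome, had 9, 15 and 8, in non-aestivation, deep aestivation and arousal. CWC25 had 4 reads in non-aestivation and 0 in the other libraries. None of these was called.

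SR proteins and related regulators had a median log2 ratio of 0.63 in deep aestivation against non-aestivation, above the 0.16 of all isotigs, and -0.35 in arousal against deep aestivation, below the -0.17 of all isotigs. None of the 14 compared isotigs was called in any comparison. Of all isotigs, 9.25% were called either way in deep aestivation against non-aestivation, 8.69% in arousal against deep aestivation and 9.05% in arousal against non-aestivation. Their summed share was level, at 1.08 times non-aestivation in deep aestivation (0.978 to 1.20).

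The sum hid opposite movements of single isotigs. SRSF4, an SR protein that promotes exon inclusion, had 99.6 RPKM in non-aestivation, 63.2 during deep aestivation and 50.6 at arousal in one isotig (isotig08471), whose deep aestivation share was 1.58 times lower than that of non-aestivation (1.30 to 1.92). A second SRSF4 isotig (isotig14146) had 82.8, 134 and 102 RPKM in non-aestivation, deep aestivation and arousal, and its deep aestivation share was 1.62 times that of non-aestivation (1.30 to 2.02). The intervals of the 2 ratios do not overlap, and both descriptions name SRSF4 of the acorn worm. Reads covered 35.8%, 34.8% and 34.1% of the first isotig in non-aestivation, deep aestivation and arousal, and 85.0%, 84.9% and 86.4% of the second. Reads matching both isotigs were not counted in either.

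SRSF12 (isotig06360) had 49.5 RPKM in non-aestivation, 90.5 during deep aestivation and 69.0 at arousal, and its deep aestivation share was 1.83 times that of non-aestivation (1.42 to 2.36). TRA2B, which activates exons through purine-rich enhancers, had 21 reads in non-aestivation, 30 during deep aestivation and 20 at arousal in its main isotig, and an SFRS12-like isotig had 20, 26 and 15 in the same order. Both were highest in deep aestivation, by amounts within counting error.

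U2AF2, the large subunit of the factor that recognises the polypyrimidine tract at the 3′ splice site, ran the other way. Its main isotig (isotig08859) had 53.5 RPKM in non-aestivation, 39.1 during deep aestivation and 76.1 at arousal. The arousal share was 1.94 times that of deep aestivation (1.45 to 2.63), with a log2 ratio of 0.95 that passed 2-fold under the other 2 scalings. An SRp20/9G8-like isotig had 50, 39 and 58 reads, and SFPQ, SRSF1 and SFSWAP had under 20 reads in each library in any one isotig.

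The DEAD box helicases had a summed share in deep aestivation of 0.771 times that in non-aestivation (0.693 to 0.858) and in arousal of 1.14 times that in deep aestivation (1.02 to 1.28). None of the 17 compared isotigs was called in any comparison, where 8.69% to 9.25% of all isotigs were called in either direction. DDX39B (isotig13248), which acts in spliceosome assembly and mRNA export, was the most abundant, with 184 RPKM in non-aestivation, 100.4 during deep aestivation and 112 at arousal. It held 465 of the 854 reads of the subgroup in non-aestivation and 222 of the 575 during deep aestivation. Its deep aestivation share was 1.83 times lower than that of non-aestivation (1.56 to 2.16), a log2 ratio of -0.87 that passed 2-fold with median-ratio scaling.

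DDX5, the p68 helicase of splicing and transcription, moved in the opposite direction. Its 2 isotigs together had 98 reads in non-aestivation, 153 during deep aestivation and 154 at arousal. The deep aestivation share was 1.79 times that of non-aestivation (1.38 to 2.33), and arousal and deep aestivation differed by less than counting error, at a ratio of 0.951 (0.755 to 1.20). Both isotigs showed the same direction against non-aestivation. The larger (isotig15042) was called higher in arousal than in non-aestivation with both other scalings.

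Several DEAD box helicases are ribosome assembly factors in yeast and mammals. DDX18 had 33 reads in non-aestivation, 12 during deep aestivation and 26 at arousal, and its deep aestivation share was 2.40 times lower than that of non-aestivation (1.21 to 5.11). DDX54 had 22 reads in non-aestivation, 7 during deep aestivation and 14 at arousal, and its deep aestivation share was 2.74 times lower than that of non-aestivation (1.13 to 7.61). DDX55 had 36, 23 and 24 reads, DDX56 had 22, 12 and 15, and DDX31 had 10, 8 and 12, in non-aestivation, deep aestivation and arousal. DDX27 had 21, 16 and 25 reads over 2 isotigs in the same order. Summed with DDX52, these 9 isotigs had 144 reads in non-aestivation, 79 during deep aestivation and 117 at arousal. Their deep aestivation share was 1.59 times lower than that of non-aestivation (1.20 to 2.12), a grouping made after the values were seen. The 8 DEAD box isotigs of splicing and export had 642 reads in non-aestivation and 454 during deep aestivation. Their summed share also dropped, 1.23 times (1.09 to 1.40), and the intervals of the groups overlap. DDX39B alone held 465 of the 642 reads in non-aestivation and 222 of the 454 during deep aestivation. The shares of DDX5, DDX41 and DDX46 were higher in deep aestivation than in non-aestivation and that of DDX23 was lower, within counting error for all but DDX5. The drop of this sum therefore rested on DDX39B. Whether a dip was particular to the ribosome assembly helicases cannot be told from these sums.

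The remaining DEAD box members had few reads. DDX41, a spliceosomal helicase, had 42, 45 and 59 reads in non-aestivation, deep aestivation and arousal, with the arousal share 1.52 times that of non-aestivation (1.01 to 2.31). DDX23, a component of the U5 snRNP in mammals, had 26, 20 and 19 reads. DDX3, which acts in translation initiation, had 30, 21 and 41 reads, with the arousal share 1.84 times that of deep aestivation (1.07 to 3.29). DDX59 had 38, 21 and 33 reads, and its deep aestivation share was 0.633 times that of non-aestivation (0.353 to 1.11). DDX46 had 11, 14 and 10 reads over 3 isotigs, 1 of which (isotig06300) had 0, 6 and 2.

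**Figure D4:**
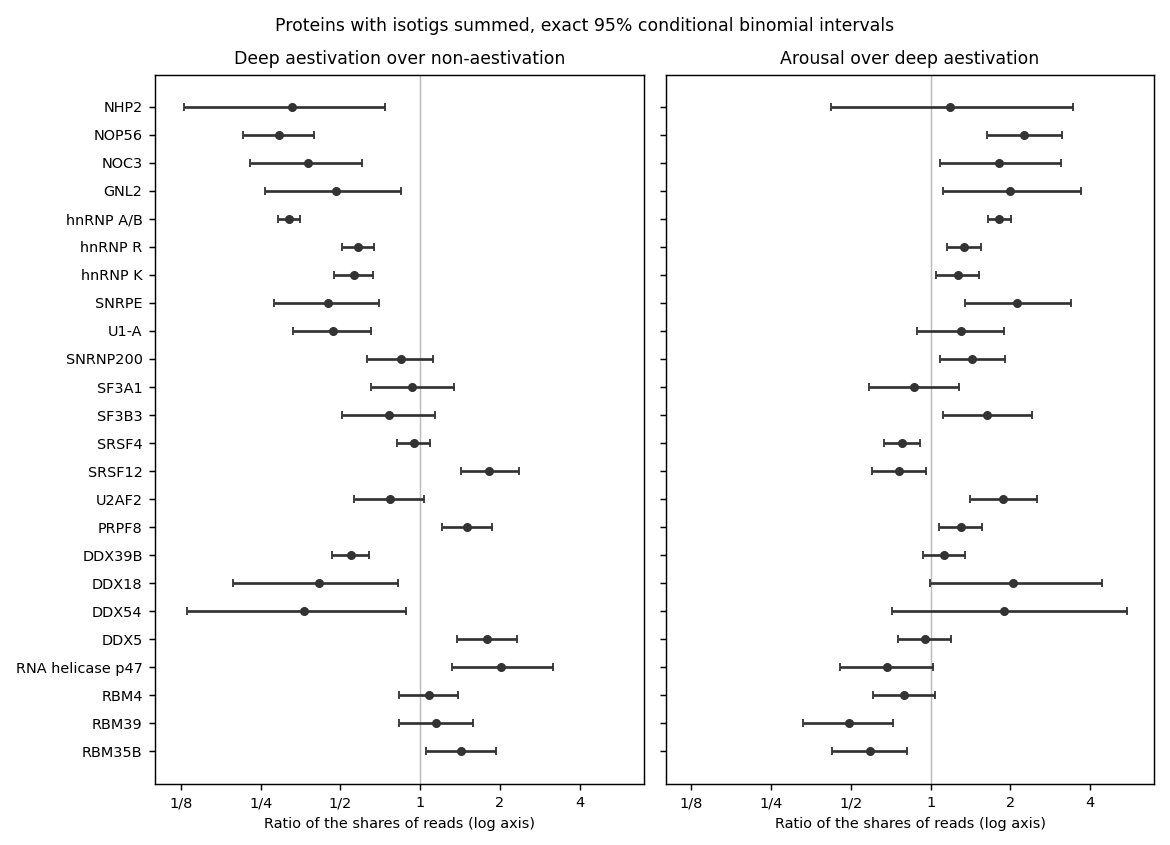
Ratio of read shares (horizontal log axis) in deep aestivation over non-aestivation and in arousal over deep aestivation for 24 proteins, isotigs of a protein summed, with bars for exact 95% intervals that cover counting error only. NOP56 (0.294 and 2.25), hnRNP A/B (0.320 and 1.82) and SNRPE (0.449 and 2.12) lie left of 1 in the first panel and right of it in the second, whereas RBM35B (1.43 and 0.589) does the opposite.

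DEAH box helicases, which drive spliceosome remodelling and release, were sparsely read. Their summed 65 reads in non-aestivation, 76 during deep aestivation and 46 at arousal made an arousal share 1.75 times lower than that of deep aestivation (1.20 to 2.58). DHX15, which takes apart the spent spliceosome, held most of them with 43, 41 and 23 reads in non-aestivation, deep aestivation and arousal. Its arousal share was 1.89 times lower than that of deep aestivation (1.11 to 3.29), without a call. DHX38, which drives the step between the splicing reactions, had 10, 21 and 14 reads over 2 isotigs, and DHX8, DHX16, DHX29, DHX37 and DHX40 had at most 5 in any library.

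Among other helicases, an isotig described as RNA helicase p47 (isotig08593) had 12.8 RPKM in non-aestivation, 26.0 during deep aestivation and 17.8 at arousal. Its deep aestivation share was 2.03 times that of non-aestivation (1.32 to 3.16). Its log2 ratio of 0.99 was called higher with a pseudocount of 0.1 only. The other 3 isotigs of this subgroup, a DDX11-like one among them, had between 5 and 12 reads in each library. The exosome, the complex that degrades RNA from its 3′ end, was read too thinly to compare. EXOSC4 had 15, 13 and 9 reads and EXOSC2 had 6, 5 and 5 in non-aestivation, deep aestivation and arousal.

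The other RNA-binding proteins, mostly of the RBM families, had a median log2 ratio of 0.19 in deep aestivation against non-aestivation, close to the 0.16 of all isotigs, with 17 of 22 above 0, where 10204 of all 18352 were. In arousal against deep aestivation the median was -0.44, against -0.17 over all isotigs. Their summed share in arousal was 1.45 times lower than in deep aestivation (1.27 to 1.67) and 1.32 times lower than in non-aestivation (1.15 to 1.51). This order, with arousal lowest, differed from that of the hnRNPs and the nucleolar proteins, whose sums were lowest in deep aestivation.

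RBM39 (isotig04011), a U2AF-related splicing factor, had 81 reads in non-aestivation, 81 during deep aestivation and 42 at arousal. It fell in arousal to a share 2.04 times lower than in deep aestivation (1.39 to 3.04), at a log2 ratio of -1.004 that just met the limit. The call was lost with a pseudocount of 1 and with both other scalings. RBM35B, the epithelial splicing regulator also known as ESRP2, had 81 reads over 3 isotigs in non-aestivation, 101 during deep aestivation and 63 at arousal. Its share was highest in deep aestivation, 1.43 times that of non-aestivation (1.06 to 1.94), and in arousal it was 1.70 times lower than in deep aestivation (1.23 to 2.36). The 2 most deeply read isotigs had the same order, with 57, 61 and 44 reads (isotig19657) and 23, 36 and 19 (isotig20590).

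RBMS2 (isotig08575), which binds single-stranded nucleic acid, had 26 reads in non-aestivation, 17 during deep aestivation and 4 at arousal. It was called lower in arousal than in non-aestivation, 6.01 times (2.08 to 23.7). KOC, an IGF2 mRNA-binding protein, had 10 and 9 reads in non-aestivation and deep aestivation and 0 in arousal in its main isotig (isotig08569), and 0 reads allow up to 3. RBM4, a splicing and translation regulator, was level with 132, 124 and 104 reads in non-aestivation, deep aestivation and arousal.

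A pair of RNA-binding proteins of ribosome and small nuclear RNA biology had the order of the nucleolar proteins. In their subgroup 4 of 22 isotigs were lowest in deep aestivation and 15 were highest there. RBD-1 (isotig19846), a ribosome assembly protein in the worm Caenorhabditis elegans, had 27 reads in non-aestivation, 6 during deep aestivation and 10 at arousal. Its deep aestivation share was 3.93 times lower than that of non-aestivation (1.59 to 11.6), a difference called with both other scalings. LARP7, which stabilises the 7SK RNA, had 35, 13 and 17 reads over 2 isotigs in non-aestivation, deep aestivation and arousal. Its deep aestivation share was 2.35 times lower than that of non-aestivation (1.21 to 4.84). Arousal over deep aestivation stood at 1.57 (0.519 to 5.27) for RBD-1 and 1.24 (0.565 to 2.77) for LARP7, intervals that include equality. RBM17, RBM16, RBM20 and Musashi-2 had between 9 and 31 reads in each library, and none was called. RBM12 had 11 reads in each of the 3 libraries. The remaining isotigs of the subgroup, of DRB1, RBM18, RBM24, KIN17 and a putative RNA-binding protein, had at most 10 reads in any library. The 5 isotigs of other proteins, such as the tRNA splicing endonuclease SEN2, had between 0 and 15 reads, 27, 31 and 37 in all in non-aestivation, deep aestivation and arousal, and none was called.

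Other steps of RNA metabolism, found by name, gave few calls. Of 8 isotigs of 3′ end processing, 0 were called in deep aestivation against non-aestivation, where 9.25% of all isotigs were called in either direction. In arousal 1 was called lower than in non-aestivation, where 5.21% of all isotigs were. This was the 64 kDa cleavage stimulation factor (isotig26308), with 51 reads in non-aestivation, 21 during deep aestivation and 19 at arousal. Of 15 compared isotigs of nuclear export and the exon junction, 1 was called higher in deep aestivation than in non-aestivation, where 5.19% of all isotigs were, so the count is near the background. That isotig (isotig04381) matched THO complex subunit 1, which couples transcription to export, and had 18 reads in non-aestivation, 41 during deep aestivation and 35 at arousal.

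The list of mRNA decay also holds LSm proteins, and that of RNA polymerases also holds general transcription factors. None of the 18 compared isotigs of mRNA decay, the 21 of RNA polymerases, the 8 of RNA editing and modification or the 2 of small RNA pathways was called in any comparison. Depending on the comparison, 8.69% to 9.25% of all isotigs were called in either direction. Counts of 0 in lists this small therefore say little about these steps. The summed share of the RNA polymerase list in deep aestivation was 0.807 times that in non-aestivation (0.696 to 0.934), and that of the mRNA decay list was 0.886 times (0.783 to 1.00). Both lay nearer to 1 than the ratio of 0.398 of the nucleolar proteins (0.331 to 0.476).

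The median length of the 115 isotigs was 1093 bases against 803 for all isotigs, and reads covered a median of 40.75% of the length in non-aestivation, 34.81% during deep aestivation and 39.54% at arousal. The corresponding medians of all isotigs with reads were 33.4%, 34.42% and 33.36%, so coverage was above that of all isotigs in the non-aestivation and arousal libraries and nearly equal to it in the deep aestivation library. Best matches were in the sea urchin Strongylocentrotus purpuratus for 41 and in the acorn worm Saccoglossus kowalevskii for 30. Reads were few, with a median of 37 over the 3 libraries, and 25 isotigs had under 10. Among proteins, 22 were covered by more than 1 isotig, 49 isotigs in all, and their single-isotig values are uncertain because reads shared between isotigs were not counted.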

How the data were processed

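Poly(A)-enriched RNA from intestine of 3 stages was sequenced, 1 library a stage. Per the file headers, the authors deposited for each assembled isotig the count of uniquely aligned reads, the RPKM (reads scaled to isotig length in kilobases and to all aligned reads) and the percent of its length covered. CASAVA 1.5 is named per the submitters' processing notes, and no aligner, assembler or read length is given in the sources used here. Unique alignment discards reads shared by isotigs of a gene or by paralogs. An isotig missing from a table was taken as 0 reads.

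Members were found by a word rule on the best-match descriptions. The members, subgroups and lists were chosen with earlier results of these data known. Ratios used log2(RPKM + 0.5), a minimum of 1 on mean RPKM, and exact conditional binomial (Clopper-Pearson) intervals, computed with Python 3.11.15, SciPy 1.17.1, NumPy 2.4.6 and pandas 2.3.3. Figures used matplotlib 3.10.9. The calculation was tested on simulated data. A call needs 2-fold and a 99.9% interval without equality. Intervals cover counting error only, 3 reads is the floor for a count of 0, and depth was 0.893 to 1.02 M reads a library. Genes named are those called, the 5 most abundant, the extremes of each subgroup and the members with deep aestivation lowest or highest. Further proteins are named to account for each subgroup. Alternatives were 2 other pseudocounts, other filters, other scalings, summed best matches and stages read from file codes. Sequences and genome positions are not analysed here.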

Additional observations from a re-analysis of the deposited data

How the results depend on the processing

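No paired analysis was possible because each stage has 1 library, and leaving out a library leaves no comparison. Of the 12 calls on single isotigs, 11 were kept with a pseudocount of 1, 12 with 0.1, 11 with median-ratio and 10 with upper-quartile scaling, but 4 with stages read from the file codes. Upper-quartile scaling added 4 calls and median-ratio 6. In deep aestivation against non-aestivation, 1 isotig was called higher, or 2 with a pseudocount of 0.1, and 5 lower, or 8 with median-ratio scaling (DDX39B, NHP2 and RBD-1 added). Its median of 0.01 lay near 0 and changed sign, to -0.11 with median-ratio and -0.022 with upper-quartile scaling, -0.12 with a minimum of 5 on mean RPKM and -0.018 with best matches summed. In arousal against deep aestivation, 2 were called higher, or 4 with either other scaling (U2AF2 and hnRNP A/B added). The 1 called lower became 0 with a pseudocount of 1 or either other scaling, and the median became -0.0097 with best matches summed. In arousal against non-aestivation, 1 was called higher, or 2 with either other scaling (DDX5 added). The 2 called lower became 1 with upper-quartile scaling and with best matches summed. Why those values moved was not tested.

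Reading the stages from the file codes exchanges non-aestivation and arousal. Of the 12 calls, 4 were then kept, 5 lost and 3 reversed, and 5 others were gained. In deep aestivation against non-aestivation it gave 2 isotigs lower and a median of -0.0087, and for the PRPF8 isotig15654 a log2 ratio of -0.42. In arousal against deep aestivation it gave 5 higher and a median of -0.0139. In arousal against non-aestivation it gave 2 higher, 1 lower and a median of 0.22, with log2 ratios of 1.55 for ANO39, 2.32 for RBMS2 and -1.66 for PRPF8 isotig15654. NOP56 and SNRPE were lower in deep aestivation than in both other libraries under either reading, an order that exchanging those 2 stages cannot change for any isotig. Depth limits the rest: a 2-fold difference could be called only from 90 to 93 reads over a pair of libraries. Depending on the pair, 22 or 23 of the 115 isotigs had that many, and 25 had under 10 reads in all.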

Other observations

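The Gene Ontology term for ribosome biogenesis was attached to 23 isotigs outside the word rule, of which 22 were compared. Their median log2 ratio was -0.76 in deep aestivation against non-aestivation, with 17 of 22 below 0, and 6 were called lower, where 4.06% of all isotigs were. The median in arousal against deep aestivation was 0.06, with 11 above and 11 below 0, against -0.17 over all isotigs. The summed share in deep aestivation was 0.516 times that in non-aestivation (95% interval 0.493 to 0.539, counting error only). In arousal it was 1.02 times that in deep aestivation (0.969 to 1.07) and 0.525 times that in non-aestivation (0.503 to 0.548). The sum was thus low in deep aestivation and level with it at arousal within counting error, whereas that of the nucleolar members was higher at arousal. Ribosomal proteins carried much of it, such as S16 (isotig22101) with 1911 reads in non-aestivation, 972 during deep aestivation and 911 at arousal.

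A set of 11 isotigs of ribosome assembly proteins outside the word rule, 2 of them also in that Gene Ontology list, was picked by name after values were seen, so it is a description and no support for the nucleolar result. They had 403 reads in non-aestivation, 178 during deep aestivation and 304 at arousal. Their share in deep aestivation was 1.98 times lower than in non-aestivation (1.65 to 2.37), and in arousal it was 1.61 times that in deep aestivation (1.34 to 1.95). Called lower in deep aestivation than in the non-aestivation library were 3 of them, where 4.06% of all isotigs were. BOP1 (isotig13552), of the complex that processes the large subunit RNA, had 105 reads in non-aestivation, 39 during deep aestivation and 68 at arousal. A Brix domain protein (isotig20026) had 89, 33 and 61 reads and SDA1 (isotig13379) had 65, 23 and 44, in non-aestivation, deep aestivation and arousal. PWP2 with 13, 12 and 13 reads and RPF2 with 20, 16 and 22 were nearer to level.

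The Gene Ontology term for the spliceosomal complex was attached to 63 isotigs, of which 17 met the word rule. Of the other 46, 41 were compared, and their median log2 ratio was -0.30 in deep aestivation against non-aestivation and -0.24 in arousal against deep aestivation, against 0.16 and -0.17 over all isotigs. One, a hypothetical protein of the sea urchin (isotig09305), had 9 reads in non-aestivation, 35 during deep aestivation and 7 at arousal. It was called higher in deep aestivation than in non-aestivation, 4.45-fold (2.10 to 10.5), and lower in arousal than in deep aestivation. Another (isotig16129) had 152, 58 and 73 reads in non-aestivation, deep aestivation and arousal and was called lower in deep aestivation than in the non-aestivation library.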
